A study of Nematostella vectensis and Apis mellifera and Strongylocentrotus purpuratus with 22 samples.

Results

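In the genome of the sea squirt (Ciona savignyi), 81742 CpGs were covered far more deeply than the rest in sperm, oocyte, cleavage and gastrula alike. They were chosen by their reads: at each of them the reads with and without methylation together exceeded 5 times the median depth of covered CpGs in all 4 stages. They made up 2.04% of the 4007959 sea squirt CpGs covered in all 4 stages, of 4129146 CpGs listed for any sea squirt stage and of 39452860 listed for the 4 species of the series. Depth chose these CpGs, so their depth and share of reads are given as a description. Their methylation level was not used to choose them.

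The study followed DNA methylation from gametes into the embryo in the sea squirt and in a cnidarian, an insect and an echinoderm, by whole-genome bisulfite sequencing (WGBS), in which unmethylated cytosines are converted and read as thymines. Sea squirts were wild animals from the bay of Yantai, with no genetic change or treatment named in the labels. Sperm, oocyte, cleavage and gastrula were compared, and eggs and embryos were freed of their chorion and washed before DNA was taken. The deposited counts of each stage pool its replicates, 3 for sperm, oocyte and cleavage and 2 for gastrula, so each stage had 1 set of counts and no difference described here has a replicate check.

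A CpG can be read many times over when its sequence is present in many copies per cell, such as the genes for ribosomal RNA, histone genes, satellites, transposons or the mitochondrial genome, of which an egg carries a large store and a sperm very little. An assembly often holds fewer copies of a repeat than the genome does, and reads of all copies then gather on the copies it holds, where the level is a mean over them. In the sea squirt, methylation is mosaic: stretches of methylated DNA, mainly gene bodies, alternate with unmethylated stretches, and the methylated share of most CpGs is close to 0 or to 1. Depth is not a count of copies, since base composition, mapping and the removal of duplicate reads shape it as well. No annotation of this assembly was used, so the regions below are named by scaffold and position on CSAV2.0 and their sequence class was not tested.

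The total number of reads over CpGs was 265282981 in sperm, 167743373 in oocyte, 347709270 in cleavage and 227875359 in gastrula. The median depth of covered CpGs was 41, 21, 50 and 37 reads, in the same order. Relative depth, used below, is the depth of a CpG divided by the median of its stage. The CpGs of very high depth had a median relative depth of 10.8 in sperm, 10.5 in oocyte, 10.3 in cleavage and 9.84 in gastrula. Their highest relative depth was 2692.5 in sperm, 15459.1 in oocyte, 5579.8 in cleavage and 2076.3 in gastrula, so the range above the threshold was wide and widest in oocyte. Each stage taken alone had between 95046 and 105909 CpGs above the threshold, and CpGs that passed it in 1, 2 or 3 stages only numbered 17394, 11928 and 12341. Near the threshold the values were continuous: 15866 CpGs whose lowest relative depth was between 5 and 6 had a mean level of 0.191 in sperm and 0.176 in oocyte, and 24043 CpGs just outside, between 4 and 5, had 0.189 and 0.175.

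These 2.04% of CpGs held 22.3% of all reads in sperm, 40.2% in oocyte, 28.7% in cleavage and 22.2% in gastrula. The excess in oocyte and cleavage lay on a single scaffold, scaffold_1. Without it the share was 22.3% in sperm, 18.2% in oocyte, 19.8% in cleavage and 21.3% in gastrula, which put oocyte lowest instead of highest. The 133 CpGs on scaffold_1 held 0.0485% of all reads in sperm, 21.99% in oocyte, 8.95% in cleavage and 0.960% in gastrula.

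**Figure D1:**
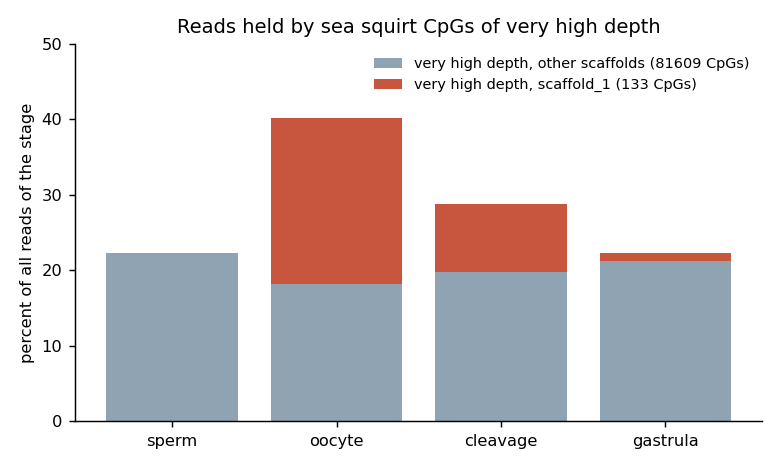
Percent of all reads of each stage (vertical axis) that lay on CpGs of very high depth, for the 133 CpGs of scaffold_1 and the 81609 CpGs on other scaffolds. The scaffold_1 part is 21.99% in oocyte and too small to see in sperm, while the part on other scaffolds lies between 18.2% and 22.3%.

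Scaffold_1 was short and almost entirely of very high depth. It had 135 listed CpGs between positions 9 and 14595, or 9.25 per kb against 26.0 per kb over all scaffolds, and 133 of them were chosen. The other 2, at positions 9 and 12296, had 11 and 132 reads in sperm and fell short there only, with 6839 and 76381 reads in oocyte. The median depth of the 133 CpGs was 974 reads in sperm, 296722 in oocyte, 240492 in cleavage and 16821 in gastrula. Relative to the stage median this was 23.8 in sperm, 14129.6 in oocyte, 4809.8 in cleavage and 454.6 in gastrula, with no overlap between any pair of stages: the ranges were 7.41 to 47.1, 7972.1 to 15459.1, 2701.7 to 5579.8 and 83.9 to 701.9. Oocyte was thus 595 times sperm, 2.94 times cleavage and 31.1 times gastrula. Along the scaffold the ratio of oocyte to sperm lay between 328 and 1432 at single CpGs. Since the ranges of the stages did not overlap, all 133 showed the order oocyte, cleavage, gastrula, sperm. The profile was flatter in oocyte and cleavage than in sperm and gastrula: the highest CpG had 1.94 times the depth of the lowest in oocyte and 2.07 times in cleavage, but 6.35 times in sperm and 8.37 times in gastrula. The third quartile of depth was 1.25 times the first in oocyte, 1.20 in cleavage, 1.88 in sperm and 1.58 in gastrula. These depths are those left after the authors removed duplicate reads, which limits how many reads a position can keep, and the part of that step in the profile was not tested.

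**Figure D2:**
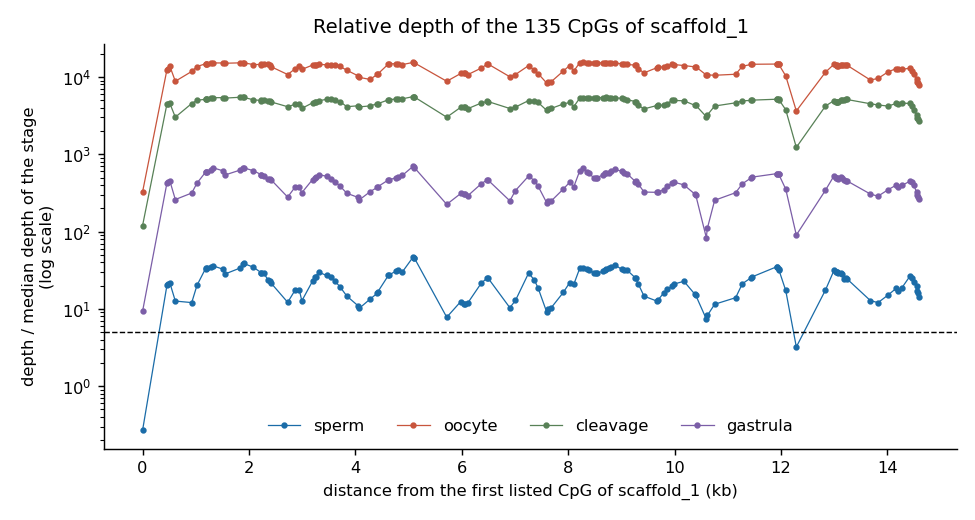
Relative depth of the 135 listed CpGs of scaffold_1 (logarithmic vertical axis, depth over the median of the stage) against their distance in kb from the first one, with 1 line per stage and the threshold of 5 as a dashed line. The 4 lines do not cross, with medians of 14129.6 in oocyte, 4809.8 in cleavage, 454.6 in gastrula and 23.8 in sperm, and only the 2 points of sperm at 9 and 12296 fall below the threshold.

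Methylation on scaffold_1 was close to 0 in all 4 stages. The mean level was 0.00827 ± 0.00365 in sperm, 0.0120 ± 0.00307 in oocyte, 0.00690 ± 0.00171 in cleavage and 0.00741 ± 0.00262 in gastrula (SD over 133 CpGs), and no CpG exceeded 0.0279. Oocyte was higher than sperm at 114 of the 133 CpGs, and higher than cleavage and than gastrula at all 133. Pooled over reads, the level was 0.0119 in oocyte (95% Wilson interval 0.0119 to 0.0120) and 0.00683 in cleavage (0.00680 to 0.00686). Intervals here cover counting error only, and a read that spans several CpGs was counted at each. The levels are not corrected for cytosines that escaped conversion, and what part of a level near 0.01 is non-conversion was not tested. Other near-unmethylated clusters of great depth went either way. Of 20 clusters elsewhere with a mean relative depth over 100 and levels of at most 0.1, oocyte was below sperm in 15 and above it in 5. The largest difference upwards was that of 36 CpGs on scaffold_327 from 113321 to 114252, with 0.0112 in sperm, 0.0214 in oocyte, 0.0105 in cleavage and 0.0102 in gastrula, while the 54 CpGs on scaffold_2 from 2870159 to 2871711 had 0.00904 in sperm, 0.00783 in oocyte, 0.00709 in cleavage and 0.00673 in gastrula.

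Because scaffold_1 held so many reads in oocyte and cleavage and so little methylation, it lowered levels that pool reads most in these 2 stages. In sperm it hardly moved them. Pooled over the CpGs of very high depth, the level was 0.149 in sperm, 0.0654 in oocyte, 0.0929 in cleavage and 0.136 in gastrula. Without scaffold_1 it was 0.150, 0.130, 0.132 and 0.142. Over all sea squirt CpGs, the pooled level of sperm exceeded that of oocyte by 0.0627, but by 0.0206 without scaffold_1 and by 0.0199 without any CpG of very high depth. The pooled level of cleavage was below that of gastrula by 0.0244, and below it by 0.00838 without scaffold_1. A mean over CpGs, in which each CpG counts once, is used in the rest of the text.

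Over the 81742 CpGs the mean level was 0.168 in sperm, 0.155 in oocyte, 0.157 in cleavage and 0.161 in gastrula. The 3507126 other CpGs with at least 5 reads in all 4 stages had mean levels of 0.284, 0.262, 0.270 and 0.271, so the CpGs of very high depth were lower in every stage, by over 0.1. The order of the stages was the same in both sets, with sperm highest and oocyte lowest. What set the CpGs of very high depth apart was the scarcity of full methylation. A level above 0.9 was found at 0.395% of them in sperm, 0.109% in oocyte, 0.0905% in cleavage and 0.159% in gastrula, against 17.4%, 9.96%, 10.8% and 12.7% of the other CpGs. Levels of at most 0.1 were about as frequent, at 58.2% of them in sperm against 64.5% of the other CpGs. The remaining CpGs lay between, 41.4% of them in sperm and 39.6% in oocyte, against 18.1% and 25.5% of the others.

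Greater depth alone narrows the spread of a measured level, so both sets were also compared at equal depth, with each CpG thinned at random to the median depth of its stage. At 41 reads in sperm, 0.836% of the CpGs of very high depth were above 0.9, against 15.1% of the 1986035 other CpGs that had at least this depth, and 38.9% against 15.3% lay between 0.1 and 0.9. At 21 reads in oocyte, the shares above 0.9 were 0.670% and 9.29%, and those between were 35.8% and 20.1%. The difference between the sets was therefore present at equal depth in both gametes, and in cleavage (0.177% and 6.86% above 0.9) and gastrula (0.343% and 9.88%).

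The makeup of levels changed with depth below the threshold too. Among CpGs at 0.5 to 1 times the median (geometric mean of the 4 stages, scaffold_1 left out), 20.8% were above 0.9 in sperm. The share was 16.0% at 1 to 2 times, 11.9% at 2 to 3 times, 5.12% at 3 to 5 times and 0.563% at 5 to 10 times. CpGs at 0.1 to 0.5 made up 5.35% at 0.5 to 1 times and 5.26% at 2 to 3 times, but 12.0% at 3 to 5 times, 29.8% at 5 to 10 times and 33.2% at 10 to 20 times. Beyond that they became rare again: above 50 times the median, 82.4% of 3100 CpGs were at most 0.1 and 8.94% were at 0.1 to 0.5. Oocyte had a like pattern, with 12.4% above 0.9 at 0.5 to 1 times the median and 0.194% at 5 to 10 times.

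**Figure D3:**
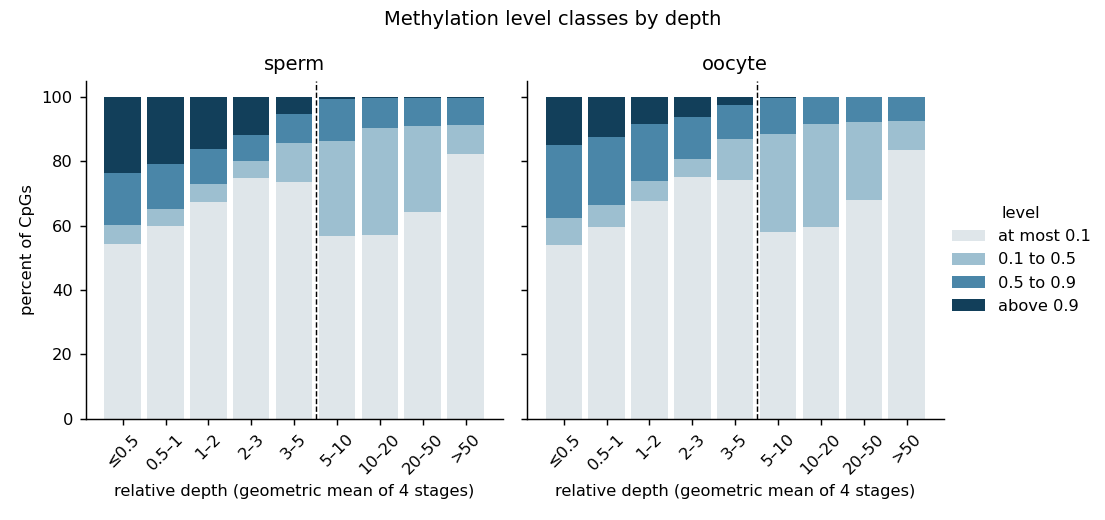
Percent of CpGs (vertical axis) in each of 4 classes of methylation level, by relative depth (geometric mean of the 4 stages, horizontal axis), in sperm and oocyte, without scaffold_1; right of the dashed line the depth is over 5 times the median. In sperm the class above 0.9 shrinks from 20.8% at 0.5 to 1 times the median to 0.563% at 5 to 10 times, the class at 0.1 to 0.5 is widest at 10 to 20 times with 33.2%, and 82.4% are at most 0.1 above 50 times.

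Among the CpGs of very high depth outside scaffold_1, mean levels were lower from band to band up to 100 times the median, and slightly higher again above it. The 39493 CpGs at 5 to 10 times the median had mean levels of 0.186 in sperm and 0.171 in oocyte, the 26784 at 10 to 20 times had 0.161 and 0.149, and the 12232 at 20 to 50 times had 0.143 and 0.130. The 2144 at 50 to 100 times had 0.1005 and 0.0914, and the 956 above 100 times had 0.118 and 0.108. Sperm was the higher in each of these 5 bands, by 0.00905 to 0.0145.

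CpG density is known to be related to methylation in invertebrates, and the CpGs of very high depth sat in somewhat denser surroundings, with a median of 40 CpGs within 500 bp against 35 for the other CpGs. These sets differed in opposite directions at the ends of the density range. With fewer than 20 CpGs within 500 bp, the mean level in sperm was 0.298 at 6868 CpGs of very high depth and 0.751 at the others. With 20 to 39 it was 0.167 and 0.311. With 40 to 59 it was 0.148 and 0.106, and with 60 to 99 it was 0.133 and 0.0896, so in CpG-dense DNA those of very high depth were the more methylated. The 481 with 100 or more had 0.385 against 0.133.

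The CpGs of very high depth were gathered in short stretches. After 90.2% of them, the next listed CpG was another. Joined across gaps of at most 200 bp they formed 5648 clusters, of which 544 were single CpGs. The 3776 clusters with at least 5 held 94.6% of these CpGs, with a median of 13 CpGs and a median span of 344 bp (quartiles 211 and 629 bp, longest 4470 bp). In 57.0% of them every listed CpG was of very high depth, and together they spanned 1916 kb. The density was 43.6 CpGs per kb in the median cluster.

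Clusters were spread over the assembly. CpGs of very high depth were found on 308 of 365 scaffolds, and the 5 scaffolds with the most held 10.5% of them. These were scaffold_321 with 1888, scaffold_157 with 1795, scaffold_345 with 1728, scaffold_88 with 1725 and scaffold_164 with 1463. On scaffold_157 they made up 10.1% of the listed CpGs and had a mean level of 0.0807 in sperm, below the 0.190 of scaffold_321, where they made up 2.37%. Pooled by size class, small scaffolds held proportionally more: 3.805% of CpGs on 191 scaffolds whose last CpG was under 100 kb, 2.74% on 126 scaffolds up to 1 Mb and 1.52% on 48 longer ones. The median scaffold differed little between these classes, with shares of 1.56%, 1.79% and 1.42%, while the highest shares were 98.5%, 27.3% and 4.93%. The ends of scaffolds also held proportionally more: 12.8% of the CpGs of very high depth, but 4.08% of the others, lay within 10 kb of the first or last listed CpG of their scaffold. Besides scaffold_1, only scaffold_152 had most of its CpGs in the set, 38 of 70, with mean levels of 0.440 in sperm, 0.367 in oocyte, 0.403 in cleavage and 0.439 in gastrula.

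Depth fell across the edges of clusters, but the depth rule itself drew these edges, so the fall is a description. No CpG within 200 bp outside an edge could be of very high depth, since gaps of at most 200 bp were joined. Among clusters in sperm, the median relative depth was 9.10 in the last 100 bp inside the edge, 4.73 in the first 100 bp outside and 2.37 in the next. The mean level changed less, with 0.111 at 400 to 500 bp inside the edge, 0.182 in the last 100 bp inside and 0.178 in the first 100 bp outside. Only long clusters reach the innermost bin, which held 4535 CpGs against 21506 in the last 100 bp. The bins thus do not follow the same clusters, and levels along single clusters were not tested. For 2344 clusters with at least 10 CpGs and at least 10 CpGs in the 2000 bp on either side, the median level in sperm was 0.0829 in the cluster and 0.0600 in the flanks, which still had a relative depth of 1.94. Most clusters of low or high level had the methylation state of their surroundings: of 1270 with at most 0.1 in sperm, 1099 had flanks of at most 0.1, and of 296 above 0.5, 193 had flanks above 0.5. The flanks of clusters at 0.1 to 0.5, and the share of low flanks over all clusters, were not counted. A few clusters stood out from their surroundings, with 18 unmethylated clusters in flanks above 0.5 and 18 methylated clusters in flanks of at most 0.1.

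**Figure D4:**
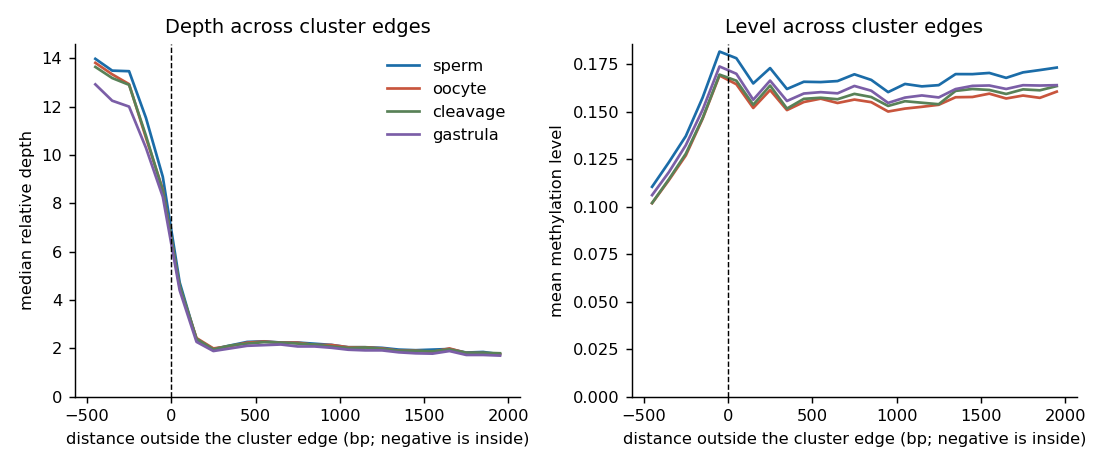
Median relative depth (left) and mean methylation level (right) in bins of 100 bp across the edges of clusters, with distance in bp outside the edge on the horizontal axis (negative is inside) and 1 line per stage. In sperm the depth steps from 9.10 to 2.37 within 200 bp of the edge, while the level is highest, at 0.182, in the last 100 bp inside. Only long clusters reach the inner bins, so the bins do not follow the same clusters. The edges were drawn by depth, so the step in depth is a description.

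Levels were even within a cluster. Of the 3776 clusters, 1824 had a mean level of at most 0.1 in sperm, 1361 lay at 0.1 to 0.5, 582 at 0.5 to 0.9 and 9 above 0.9. The SD of level over the CpGs of a cluster had a median of 0.0229 in sperm, and of 0.0409 among clusters at 0.1 to 0.9, so a cluster of intermediate level was mostly made of CpGs of intermediate level and not of a mixture of methylated and unmethylated CpGs. In oocyte these medians were 0.0262 and 0.0490. All 9 clusters above 0.9 in sperm were lower in oocyte. In 2 of them the level was above 0.9 in all 4 stages. The 12 CpGs on scaffold_137 from 57990 to 58093 had 0.937 in sperm, 0.925 in oocyte, 0.914 in cleavage and 0.907 in gastrula, in flanks of 0.0802 in sperm. The 5 CpGs on scaffold_66 from 2869 to 2935 had 0.953, 0.924, 0.920 and 0.923, in flanks of 0.574 in sperm. These 9 were singled out by their level.

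The clusters with the most CpGs were long and mostly unmethylated. The first was on scaffold_201 from 1072426 to 1075207, with 256 CpGs in 2782 bp. Its mean level was 0.228 in sperm, 0.197 in oocyte, 0.211 in cleavage and 0.219 in gastrula, and its relative depth 35.2, 20.1, 17.2 and 29.1. It was uneven for its kind, with an SD of 0.143 over its CpGs in sperm. The 242 CpGs on scaffold_248 from 144813 to 148863 had 0.00844 in sperm, 0.00694 in oocyte, 0.00706 in cleavage and 0.00821 in gastrula. The 221 on scaffold_2 from 2884175 to 2886584, near the end of that scaffold, had 0.00803, 0.00621, 0.00764 and 0.00758. Both thus lay as low as scaffold_1, at relative depths of 15.9 to 24.4. The others of this size were on scaffold_221 (4920 to 9389, 252 CpGs), scaffold_3 (3050951 to 3054657, 246), scaffold_192 (2069524 to 2073892, 241) and scaffold_335 (392943 to 396496, 240), with levels between 0.0278 and 0.0495 in every stage. The cluster on scaffold_241 from 259709 to 263252 (213 CpGs) was different: it had 0.141 in sperm, 0.0920 in oocyte, 0.110 in cleavage and 0.0870 in gastrula, in flanks of 0.957, 0.883, 0.975 and 0.898 over 10 CpGs.

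The clusters of greatest depth with at least 10 CpGs were 4 on scaffold_1, with relative depths in oocyte between 10897.0 and 15098.5. Named after their values were seen, the next 4 lay on other scaffolds. The deepest in sperm was on scaffold_212 from 1058454 to 1058776, with 29 CpGs and a relative depth of 782.4 in sperm, 523.6 in oocyte, 465.7 in cleavage and 552.4 in gastrula. Its mean level was 0.0327, 0.0272, 0.0297 and 0.0311. The 54 CpGs on scaffold_2 from 2870159 to 2871711, described above for their level, had relative depths of 487.4, 729.1, 484.8 and 392.1. The 10 CpGs on scaffold_241 from 173901 to 174107 had 544.7, 832.4, 509.7 and 415.7, and levels of 0.00929, 0.00838, 0.00750 and 0.00756. These regions on scaffold_2 and scaffold_241 had oocyte-to-sperm ratios of depth of 1.496 and 1.53, and their levels differed in every stage by less than the SD over the CpGs of either. Their surroundings could not be compared, since the region on scaffold_2 had no CpG listed in its flanks outside the set, while that on scaffold_241 lay in flanks of 0.670 in sperm at a relative depth of 0.854. The fourth was on scaffold_24 from 229918 to 230206, with 19 CpGs at 347.5, 318.6, 248.1 and 299.3, levels of 0.0407, 0.0360, 0.0351 and 0.0346 and flanks of 0.643 in sperm.

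Outside scaffold_1, 25 clusters on 19 scaffolds had a mean relative depth over 100, and they were of 2 kinds. In 20 of them, with 767 CpGs, the level was at most 0.1 in every stage, and in sperm it lay between 0.00817 and 0.0695. The other 5, with 80 CpGs, lay between 0.746 and 0.823 in sperm, between 0.685 and 0.756 in oocyte, between 0.709 and 0.778 in cleavage and between 0.721 and 0.799 in gastrula. No cluster of this depth had a level between these kinds, although 1361 of all 3776 clusters were at 0.1 to 0.5 in sperm. The 5 methylated ones were on scaffold_2 (843850 to 845217), scaffold_60 (9239 to 9404 and 9725 to 9806) and scaffold_81 (649792 to 650254 and 756728 to 757511). Their flanks were low, between 0.0251 and 0.291 in sperm. Of the 20 unmethylated ones, 15 had at least 10 flanking CpGs, and 4 of these lay in flanks above 0.5. These clusters were grouped after their levels were seen, so the grouping has no test.

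Between stages the CpGs of very high depth changed little. Sperm exceeded oocyte by 0.0132 on average (95% interval for counting error 0.0130 to 0.0134), against 0.0216 over the other CpGs. Sperm exceeded cleavage by 0.0113 (0.0143 over the others). Oocyte was below cleavage by a mean difference of -0.00190 (-0.00736 over the others), and cleavage minus gastrula was -0.00489 (-0.00175). Sperm was the higher at 63.4% of them and oocyte at 36.0%. Over the other CpGs these shares were 42.2% and 21.4%, with equal levels at the rest, so sperm was the more often higher in both sets. A difference of at least 0.2 between sperm and oocyte was found at 0.234% of them and at 5.75% of the others, and 90.8% of them kept all 4 stages within a range of 0.1, against 72.5% of the others. A level from few reads scatters more, and the part of depth in this comparison of ranges was not tested.

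The difference between gametes was carried by the methylated CpGs. Grouped by the mean level of cleavage and gastrula, which sperm and oocyte did not enter, the 48855 CpGs at most 0.1 had a sperm minus oocyte difference of 0.00270. The 24413 at 0.1 to 0.5 had 0.0202, and the 8386 at 0.5 to 0.9 had 0.0538. The 88 above 0.9 had 0.0401. The other CpGs had 0.00159, 0.0267, 0.0735 and 0.0514 in these classes, so the difference was smaller at the CpGs of very high depth in the 3 methylated classes. Levels within a class were not alike: sperm had 0.249 at the CpGs of very high depth against 0.295 at the others in the class at 0.1 to 0.5, and 0.699 against 0.839 in the class at 0.5 to 0.9. The part of this in the smaller difference was not tested. The classes themselves were filled differently: the one at 0.1 to 0.5 held 29.9% of the CpGs of very high depth and 5.79% of the others.

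Single CpGs were compared by a 2-sided Fisher's exact test on their reads, with Benjamini-Hochberg adjustment over every CpG that had 5 reads or more in each of the stages compared. A CpG was called where the adjusted p was below 0.05 and its levels differed by 0.2 or more. The test compares sets of counts and not conditions. Between sperm and oocyte, 184 of the 81742 CpGs were called, 154 of them higher in sperm and 30 higher in oocyte, or 0.225% against 0.379% of all CpGs tested. Between oocyte and cleavage 18 were called (7 and 11), or 0.0220% against 0.0511%. Between sperm and cleavage 8 were called (7 and 1), or 0.00979% against 0.0663%, and between cleavage and gastrula 32 (8 and 24), or 0.0391% against 0.109%. In each comparison the share was thus below the background. With a minimum difference of 0.1 it was above it in each, with 1123 called between sperm and oocyte (1.37% against 0.423%), 217 between oocyte and cleavage (0.265% against 0.0577%), 340 between sperm and cleavage (0.416% against 0.0902%) and 492 between cleavage and gastrula (0.602% against 0.135%). Depth raises the power of the test at CpGs of very high depth, so these shares do not compare the sets at equal power. A minimum of 0.1 was not run on thinned reads. With all CpGs thinned to the median depth and a minimum difference of 0.2, the counts were 1, 0, 0 and 2, against backgrounds of 0.0402%, 0.00122%, 0.00466% and 0.0161%. Of the 81742 CpGs, 2098, 1730, 2507 and 2382 had an unadjusted p below 0.05 in the thinned reads. The share over all CpGs was not counted for this p, so nothing is read from these numbers. At the median depth the number called between sperm and oocyte was thus 1 instead of 184.

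The lower level of oocyte was seen in most clusters. Oocyte was below sperm in 2663 of the 3776 clusters and above it in 1113, and the difference was at least 0.1 in 120 of the former and 11 of the latter. In 3096 clusters (82.0%) the 2 gametes were within 0.05 of each other. Of 1885 clusters above 0.1 in the embryos, 1460 were lower in oocyte, with a median oocyte minus sperm difference of -0.0294. Among 149 scaffolds with at least 100 CpGs of very high depth, the mean level was lower in oocyte in 137. Across the 3776 clusters, levels in different stages had Pearson coefficients of 0.989 to 0.994, and these clusters share the libraries of each stage.

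**Figure D5:**
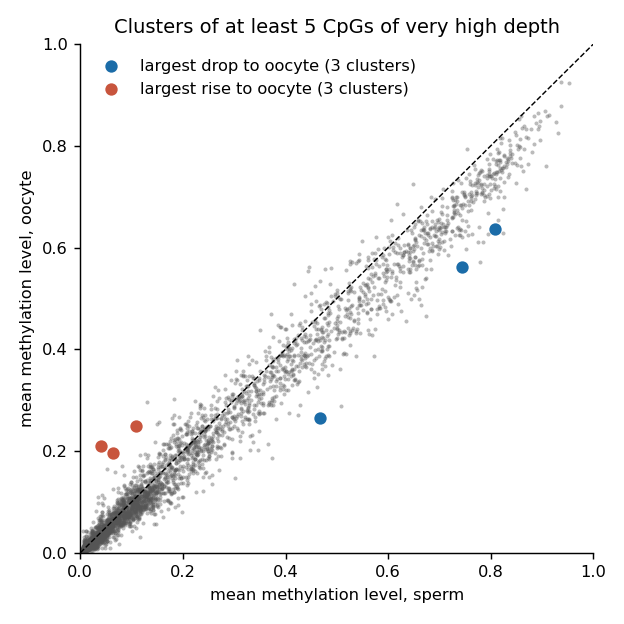
Mean methylation level of the 3776 clusters of at least 5 CpGs of very high depth in sperm (horizontal axis) and oocyte (vertical axis), 1 point per cluster, with the line of equal levels dashed and the 3 largest drops and rises among clusters of at least 10 CpGs in colour. Most points lie just below the line, 2663 of 3776, and the 3 clusters with the largest rises, from levels of 0.0411 to 0.108 in sperm, lie above it.

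Among clusters of at least 10 CpGs, the 3 with the largest drop from sperm to oocyte were of intermediate or high level. The 14 CpGs on scaffold_132 from 58588 to 58873 had 0.467 in sperm, 0.264 in oocyte, 0.373 in cleavage and 0.447 in gastrula, and 9 of them were called between sperm and oocyte. The 16 CpGs on scaffold_216 from 54 to 1344, at the start of that scaffold, had 0.744, 0.561, 0.691 and 0.707 (5 called), at relative depths of 108.7, 71.2, 78.7 and 79.7. The 10 CpGs on scaffold_257 from 2444855 to 2445136 had 0.809, 0.636, 0.772 and 0.770 (4 called). In all 3 cleavage lay between the gametes, and on scaffold_132 and scaffold_216 gastrula was nearer to sperm than cleavage was. These 3 clusters were chosen for the difference between the gametes, which sets sperm and oocyte far apart, so the order of stages is a description of them. Their flanks differed in the same direction, for example 0.893 in sperm and 0.702 in oocyte on scaffold_216.

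The 3 largest rises among clusters of at least 10 CpGs began from low levels. The 23 CpGs on scaffold_360 from 37136 to 37562 had 0.0411 in sperm, 0.209 in oocyte, 0.0958 in cleavage and 0.0509 in gastrula, with 9 called between sperm and oocyte. The 70 CpGs on scaffold_361 from 298315 to 299571 had 0.0635, 0.196, 0.106 and 0.0700, with 8 called. In both, cleavage lay between the gametes and gastrula was close to sperm. The flanks on scaffold_360 were also highest in oocyte, with cleavage between the gametes, but gastrula was below sperm (0.0476, 0.196, 0.0871 and 0.0402). Those on scaffold_361 rose less than their cluster, from 0.0441 in sperm to 0.0703 in oocyte. The 15 CpGs on scaffold_358 from 337630 to 338227 had 0.108, 0.249, 0.0672 and 0.0904, and none was called between sperm and oocyte, but 3 were between oocyte and cleavage. The flanks of this cluster showed no rise, with 0.469 in sperm and 0.465 in oocyte. These clusters were chosen for their difference, so their values describe it.

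Outside scaffold_1 most clusters had similar relative depths in the 4 stages. The rule itself favours this, since a CpG had to pass the threshold in every stage, so these ratios are a description. Over 3765 clusters, the ratio of relative depth of oocyte to sperm had a median of 0.992, with the lowest and highest 5% of clusters below 0.686 and above 1.48. It was at least 1.5 in 175 clusters, and sperm was at least 1.5 times oocyte in 146. For cleavage over sperm the median was 0.980 and for gastrula over sperm 0.923.

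A small group shared with scaffold_1 a greater depth in oocyte and cleavage than in sperm and gastrula. In 16 clusters with 301 CpGs on 9 scaffolds, oocyte and cleavage were each at least 1.5 times both sperm and gastrula. The opposite pattern, with sperm and gastrula above oocyte and cleavage, was found in 4 clusters, oocyte with gastrula in 2, and the remaining pairs of stages in 0. Of the 16 clusters, 6 with 122 CpGs were on scaffold_28 between 22614 and 62469, and 3 with 49 CpGs were on scaffold_40 between 28908 and 31206. The 34 CpGs on scaffold_28 from 38002 to 39001, for example, had a relative depth of 31.0 in sperm, 55.9 in oocyte, 50.2 in cleavage and 27.5 in gastrula. Gastrula was far above sperm on scaffold_1 (454.6 against 23.8), but not in these clusters. All 16 were close to unmethylated, with no stage above 0.0225 apart from the cluster on scaffold_360 (70100 to 70680), whose highest level was 0.0377. In level, oocyte was below sperm in 13 of the 16, whereas on scaffold_1 it was above sperm at 114 of 133 CpGs. Whether these clusters share sequence with scaffold_1 was not tested.

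Among clusters of at least 10 CpGs, the highest ratios of oocyte to sperm depth were those of 3 on scaffold_1 (630, 498 and 489). Outside it, named after their values were seen, the first was on scaffold_220 from 755493 to 756074, with 12 CpGs at a relative depth of 6.21 in sperm, 38.9 in oocyte, 12.8 in cleavage and 8.07 in gastrula, a ratio of 6.27. It was unmethylated, with levels between 0.00739 and 0.0153. The 22 CpGs on scaffold_2 from 2879726 to 2880365 had 7.61, 22.4, 7.24 and 7.91, a rise in oocyte alone, and were methylated, at 0.649, 0.726, 0.649 and 0.677. The third was one of the clusters on scaffold_40 (29928 to 30298), at 10.5, 25.9, 20.7 and 10.6.

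The 3 lowest ratios among clusters of at least 10 CpGs belonged to short clusters, and oocyte had the lowest relative depth of the 4 stages in each. The 10 CpGs on scaffold_30 from 77831 to 77971 had 24.9 in sperm, 8.57 in oocyte, 13.4 in cleavage and 19.3 in gastrula, a ratio of 0.344. The 12 on scaffold_290 from 700583 to 700740 had 33.5, 12.4, 18.7 and 26.7. Both had levels below 0.1 in every stage within methylated flanks, 0.865 and 0.851 in sperm. The 20 on scaffold_276 from 2921655 to 2921864 had 15.2, 6.64, 7.26 and 9.61, with a level of 0.0803 in oocyte and of 0.0402 to 0.0423 in the other stages.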

How the data were processed

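The authors used Trimmomatic for trimming and Bismark for alignment to CSAV2.0 plus lambda DNA, removed duplicate reads and clipped overlapping read pairs. The labels also name SAMtools 0.1.19; other versions are not given in the sources used here. The authors deposited, per CpG and stage, counts of reads with and without methylation, pooled over replicates, and the level as a fraction. Fractions are not corrected for non-conversion, and lambda DNA is not listed in the tables. Removal of duplicates can also remove reads of different molecules with the same ends, which affects the deepest CpGs most. Reads of a repeat may be placed on any of its copies.

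Depth was the sum of both counts. CpGs above 5 times the median depth of covered CpGs in all 4 stages were taken. Starts were taken to count from 0, and positions are given from 1. CpGs with gaps of at most 200 bp formed clusters. Levels were compared with CpGs of at least 5 reads in all stages. Fisher's exact test (2-sided, Benjamini-Hochberg adjusted) was tested on simulated data. Named regions are the 8 clusters with the most CpGs and, among clusters of at least 10, the 4 deepest, the 3 largest rises and the 3 largest drops from sperm to oocyte, and the 3 highest and 3 lowest depth ratios of oocyte to sperm, plus the 5 scaffolds with the most CpGs. Others, including those named without scaffold_1, were chosen after their values were seen. The CpGs and the rules were chosen with earlier results of these data known. Alternatives were tried for the threshold, the stages that had to pass it, the weighting of reads, scaffold_1, the minimum difference and reads, thinning and the gap.

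Wilson intervals are at 95%. Python 3.11.15, numpy 2.4.6, pandas 2.3.3, numba 0.67.0, scipy 1.17.1 and matplotlib 3.10.9 were used. Samples of the other species served only for the count of listed CpGs.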

Additional observations from a re-analysis of the deposited data

How the results depend on the processing

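The sign of each difference of mean level between stages was the same under every alternative run. Values below are in the order sperm, oocyte, cleavage and gastrula, and the counting intervals are so narrow that most values move beyond them. A threshold of 3 times the median gave 163735 CpGs, mean levels of 0.169, 0.156, 0.158 and 0.162 and 28.1%, 44.7%, 33.9% and 27.8% of reads. A threshold of 10 times gave 34399 CpGs, levels of 0.148, 0.136, 0.137 and 0.141 and 16.1%, 34.6%, 22.9% and 16.2% of reads. Passing in at least 1 stage gave 123405 CpGs, levels of 0.172, 0.159, 0.161 and 0.165 and 25.7%, 42.9%, 31.7% and 25.4% of reads. Without scaffold_1 the levels were 0.168, 0.155, 0.157 and 0.162 and the shares 22.3%, 18.2%, 19.8% and 21.3%. Pooled over reads the levels were 0.149, 0.0654, 0.0929 and 0.136.

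The difference of sperm minus oocyte was 0.0134 at 3 times, 0.0120 at 10 times, 0.0839 pooled over reads and 0.0196 pooled without scaffold_1. Sperm minus cleavage was 0.0109, 0.0105, 0.0564 and 0.0178, and cleavage minus gastrula was -0.00417, -0.00395, -0.0434 and -0.0102. Oocyte minus cleavage was -0.00248, -0.00145 and -0.0275, and -0.00182 pooled without scaffold_1. Called CpGs between sperm and oocyte, oocyte and cleavage, sperm and cleavage, and cleavage and gastrula numbered 1123, 217, 340 and 492 at a minimum difference of 0.1. At 0.3 they numbered 3 (0.00367%), 0, 0 and 0, against 0.272%, 0.0421%, 0.0396% and 0.0750% of all CpGs tested. With thinned reads they numbered 1, 0, 0 and 2, and backgrounds for this and for 0.1 are given above. With 10 reads as the minimum they were 188, 19, 8 and 32 (0.230%, 0.0232%, 0.00979% and 0.0391%). The shares over all CpGs were then 0.483%, 0.0679%, 0.0745% and 0.124%. Gaps of 100 and 500 bp gave 4518 and 3265 clusters of at least 5 CpGs.

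The share of reads and the pooled differences without scaffold_1 were added after the data were seen. Subtraction of the lambda level was not run, as it was planned from the deposited tables, which do not list lambda. Conversion rates stated by the study were not used here. No paired analysis was possible because each stage has 1 set of counts, and leaving out replicates was not run for the same reason.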
